A study of Mus musculus with 3 samples.

Results

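Cells of mouse heart that carried transcripts of cardiac fibroblast genes were taken from 3 droplet single-cell RNA libraries by a rule on 13 genes. A cell was a member when at least 4 of Pdgfra, Tcf21, Dpt, Lum, Dcn, Col1a2, Bmper, Negr1, Scara5, Gfra1, C1qtnf7, Plcxd3 and Medag had a UMI (unique molecular identifier, 1 captured transcript). Fewer than 3 of 7 mesothelial genes and fewer than 3 of 6 endothelial and macrophage genes were allowed. The rule gave 2423 members among 27497 cells: 856 of 9510 in the isotype library, 898 of 6388 in the library titled PD1/PEM and 669 of 11599 in the library titled PDL1/ATZ. The members were thus selected on values of these same cells, so their levels of the 13 genes are a description.

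All animals were NOD/SCID mice, a strain without functional T and B lymphocytes, and no other allele or age is labelled. They received an isotype control antibody, pembrolizumab (an antibody raised against human PD-1) or atezolizumab (an antibody against PD-L1) on days 0 and 7. Hearts were collected on day 14, and each group is 1 library made from a pool of 3 hearts. The titles and the treatment tags disagree, since PD1/PEM is tagged with Atezolizumab while PDL1/ATZ is tagged with Pembrolizumab. Libraries are therefore called by title, and no difference can be given to an antibody by name. With 1 library per group there is no replicate and no test, and every interval below is a 95% interval of counting error only.

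Cardiac fibroblasts are the interstitial cells that lay down and remodel the collagen network of the heart. They descend mainly from the epicardium, are marked by the receptor kinase PDGFRA and the transcription factor TCF21, and secrete fibrillar collagens, small leucine-rich proteoglycans such as decorin and lumican, and the enzymes that crosslink and cut this matrix. After injury they can turn into myofibroblasts, which express contractile genes and periostin.

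Among the rule genes, Dcn (decorin) was the most abundant by UMIs in members, at 1377 CPM (the usual depth-scaled unit, a gene's UMIs over all UMIs of the same cells) in the isotype library, 1463 in PD1/PEM and 1460 in PDL1/ATZ. In non-members of the same libraries it was at 923, 1122 and 888 CPM, so members held 1.49, 1.30 and 1.64 times that level. A Dcn UMI was present in 96.6%, 98.1% and 93.9% of members, and in 85.2%, 93.0% and 71.2% of endothelial-rule cells (non-members with at least 3 of Pecam1, Cdh5, Emcn and Egfl7), a cell type that should lack the gene. Median depth was 2149.5, 2724 and 1518 UMIs in members against 2424, 3107.5 and 1792 in the endothelial-rule cells, so depth did not favour the members. A Dcn UMI by itself therefore did not mark a fibroblast in these libraries.

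The rarer rule genes stood further apart. The rule selects on UMIs of these same genes, so their contrast with Dcn is a description and no ranking of markers. Pdgfra, the growth factor receptor that marks the lineage, was at 129, 89.5 and 193 CPM in members and at 42.0, 40.4 and 59.3 CPM in non-members of the isotype, PD1/PEM and PDL1/ATZ libraries. Tcf21, the transcription factor needed for fibroblast formation, was at 25.1, 20.2 and 29.7 CPM in members against 9.60, 7.27 and 12.7 CPM in non-members. Bmper, a secreted regulator of BMP signalling, reached 108, 67.0 and 294 CPM against 30.2, 27.7 and 74.4 CPM. Over all 13 genes the summed level was 3284, 3120 and 4525 CPM in members and 1625, 1936 and 1854 CPM in non-members. The smallest gap was in PD1/PEM and the widest in PDL1/ATZ.

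**Figure D1:**
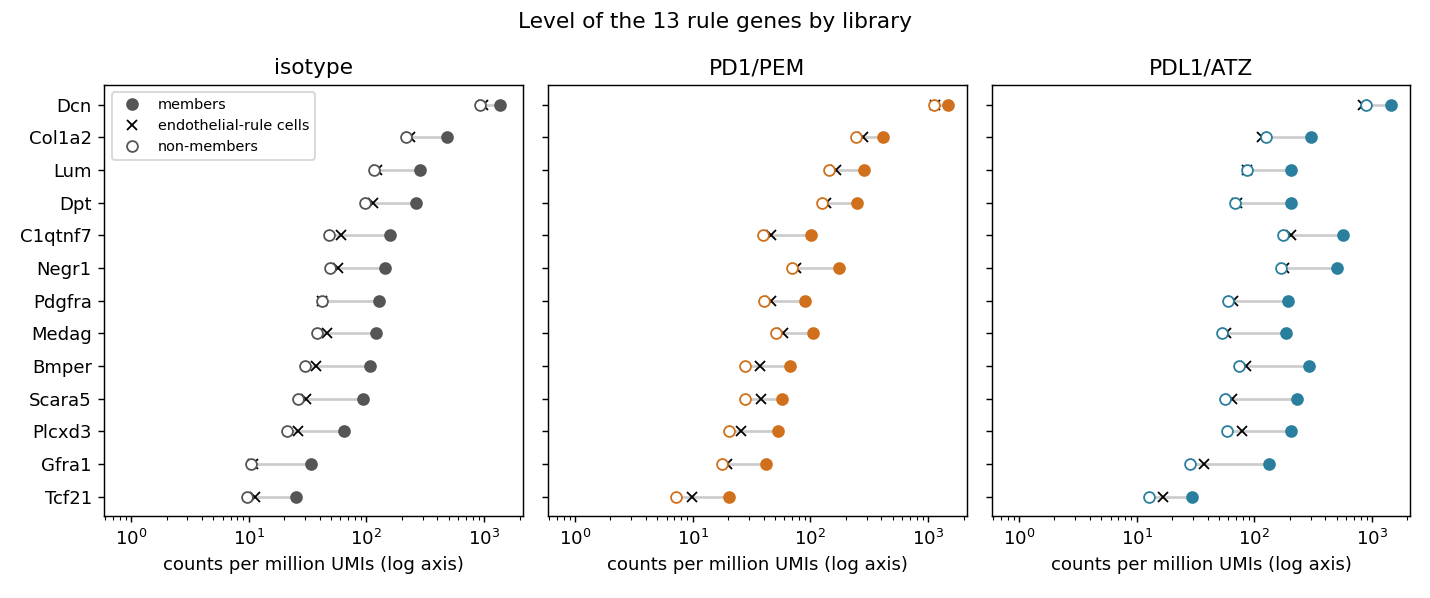
Level of each of the 13 rule genes in members (filled circles), non-members (open circles) and endothelial-rule cells (crosses) of each library, in CPM on a log axis. Every rule gene lies higher in members, which the rule itself favours, and Dcn has the narrowest gap, from 923 to 1377 CPM in the isotype library.

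The rest of the members' profile lay close to that of their own library, and in this respect the data go against a plain reading of the members as fibroblasts. The 12 cardiomyocyte markers, which include Myh6, Ttn and Tnnt2, made up 3.60%, 2.54% and 1.39% of member UMIs and 3.78%, 2.59% and 1.57% of non-member UMIs. Endothelial-rule cells held nearly the same share, 3.56%, 2.41% and 1.26%. The 10 endothelial markers summed to 1942, 2249 and 2854 CPM in members against 2279, 2710 and 4144 CPM in non-members, and the 10 macrophage markers to 259, 276 and 267 CPM against 299, 385 and 397 CPM. None of the cardiomyocyte, endothelial, macrophage, pericyte, smooth muscle, mesothelial or Schwann markers was at 0 in members of any library. Adipocyte markers summed to 1.002, 1.58 and 6.11 CPM, and the lymphocyte marker Cd3d was at 0 in members of all 3 libraries. When the non-member profile was scaled to remove all cardiomyocyte marker UMIs from the members, it equalled 95.03%, 98.1% and 88.5% of member UMIs. The part of these markers in the results below was not tested. The members are accordingly called cells of the fibroblast rule.

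Most members sat at the edge of the rule. Those with exactly 4 of the 13 genes were 564 in isotype, 562 in PD1/PEM and 408 in PDL1/ATZ, or 65.9%, 62.6% and 61.0% of the members, and just outside it were 1448, 1140 and 1120 cells with 3 genes. Only 30, 36 and 45 members had 7 or more. Barcodes common to isotype and PD1/PEM numbered 23, of which 2 belonged to isotype members and 3 to PD1/PEM members, and PDL1/ATZ had none in common with either. The median mitochondrial share of member UMIs was 26.9%, 27.1% and 7.25%, and haemoglobin transcripts summed to 3873, 7124 and 8176 CPM, close to the 3938, 7144 and 8311 CPM of the non-members.

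The summed level of the collagens outside the rule was highest in the members with the most rule genes. In the isotype library the 22 collagen genes of a list that leaves out Col1a2 summed to 1917 CPM in cells with 0 rule genes, 2192 CPM in members with 4 and 3303 CPM in members with 7 or more. The corresponding sums were 2233, 2306 and 3399 CPM in PD1/PEM and 1936, 2156 and 3123 CPM in PDL1/ATZ. Single collagens did not all follow. Col3a1 went from 221 CPM at 0 rule genes to 513 CPM at 7 or more in isotype, but from 229 to 207 CPM in PDL1/ATZ, where Col1a1 was at 91.8 CPM in members with 4 rule genes and 74.6 CPM, on 9 UMIs, in those with 7 or more. Cardiomyocyte markers went the other way, from 3.92% to 3.72% and 2.67% of UMIs in isotype, from 2.71% to 2.62% and 1.93% in PD1/PEM and from 1.87% to 1.56% and 0.923% in PDL1/ATZ. Cells with 0 to 3 rule genes differed little from one another in both measures, and the larger differences lay among members. Depth moved with the number of rule genes as well, since the median cell had 993 UMIs at 0 rule genes and 2564 at 7 or more in isotype, and the part of depth in these levels was not tested. Counts with 0 to 3 genes include only cells that met the limits on other cell types.

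**Figure D2:**
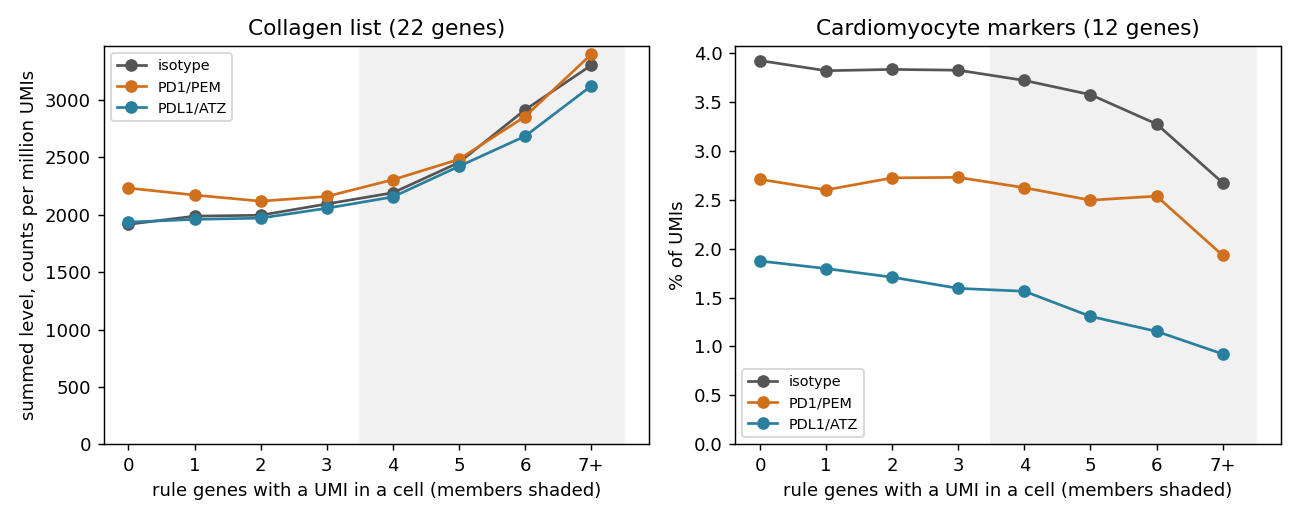
Summed level of the 22 collagen genes (left, CPM) and share of cardiomyocyte markers (right, % of UMIs) in cells grouped by the number of rule genes with a UMI, with 1 line per library and members shaded. Collagens reach 3303, 3399 and 3123 CPM at 7 or more rule genes, where the cardiomyocyte share is lowest in each library.

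Taken over all members, the excess of matrix transcripts over non-members was small. Genes were counted here if the members would hold at least 10 UMIs in every library at the non-member level, so that the choice does not rest on the members' own values. Over all 10221 such genes outside the rule, 1464 (14.3%) were higher in members in 3 of 3 libraries and 1745 (17.1%) lower. Of 20 list collagens 13 were higher and 0 lower, of 47 proteoglycans and matrix glycoproteins 28 and 1, and of 35 mesenchymal transcription factors 20 and 2. Col1a1, which encodes the other chain of type I collagen, was 1.39, 1.39 and 1.56 times the non-member level, on 398, 526 and 108 UMIs in isotype, PD1/PEM and PDL1/ATZ. Frzb, a secreted Wnt antagonist, was 1.71, 1.37 and 1.37 times, Prelp, a matrix proteoglycan, 1.35, 1.41 and 1.46 times, and Col8a1, a short-chain collagen, 1.49, 1.35 and 1.71 times that level. These 4 were among the 20 genes outside the rule with the largest smallest ratio, ranked over genes with at least 10 UMIs in members. Most of the others rested on few UMIs, such as Etfbkmt, ranked first, with 16, 13 and 13, while A4galt, which makes the Gb3 glycolipid, had 70, 109 and 104 UMIs and ratios of 1.42, 1.59 and 1.94.

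A clearer fibroblast profile lay in the members richest in rule genes. Members whose rule-gene UMIs were at least 0.5% of their total numbered 125 in isotype, 107 in PD1/PEM and 247 in PDL1/ATZ, with 239355, 242735 and 360343 UMIs. This limit was chosen after several narrower ranges had been looked at, by number of rule genes and by share, and it cuts a continuous range: 82, 78 and 114 members lay within 0.05 percentage points of it. Shallow cells reach it more easily, and the median depth was 1580.0, 1944 and 1282 UMIs. Cardiomyocyte markers were at 2.78%, 1.78% and 1.21% of UMIs, below the non-member share in each library but far from 0. The median cell had 0.165%, 0.217% and 0.256% of its UMIs from endothelial markers, 0.0550%, 0.0703% and 0.0654% from pericyte markers and 0 from macrophage and mesothelial markers. Members under the limit had medians of 0.191%, 0.218% and 0.284% for endothelial and 0.0582%, 0.0665% and 0.0847% for pericyte markers. Their macrophage medians were 0 and their mesothelial medians 0, 0.0226% and 0, so such low values were not particular to the richer members.

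Genes were again counted only if these cells would hold at least 10 UMIs in every library at the non-member level, a choice made after the values were seen. Of 3416 such genes outside the rule 78 (2.28%) were at least 1.5 times the non-member level in 3 of 3 libraries and 50 (1.46%) were as far below it. For the collagens 7 of 12 were that far above, with Col1a1 at 501, 556 and 117 CPM against 144, 150 and 60.2 CPM in non-members, which is 3.49, 3.70 and 1.94 times. Col8a1 was at 2.81, 2.58 and 2.26 times, and Col5a2, a chain of the type V collagen that helps nucleate fibrils, at 2.77, 1.99 and 1.84 times. Col3a1 was at 2.87 and 2.50 times in isotype and PD1/PEM but at 1.17 times in PDL1/ATZ, with an interval there that reached below 1 (lower bound 0.941). Proteoglycans and matrix glycoproteins had 8 of 28 above, among them Smoc2 (2.64, 2.40 and 2.40 times), a calcium-binding matricellular protein, Abi3bp (2.16, 2.34 and 2.17 times) and Prelp (2.94, 4.82 and 1.94 times). Mfap5, a component of microfibrils, was at 3.20, 2.49 and 2.26 times, but it is too rare in non-members to be counted.

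Enzymes that shape the matrix were also high in the rule-gene-rich members. Mmp2, a gelatinase, was at 192, 198 and 122 CPM against 67.5, 87.0 and 51.7 CPM in non-members of isotype, PD1/PEM and PDL1/ATZ. Adamts5, a proteoglycan-cleaving protease, was at 2.45, 1.94 and 2.20 times and Htra3, a serine protease, at 2.83, 2.09 and 2.33 times the non-member level. In all, 6 of 15 matrix proteases and inhibitors and 2 of 10 collagen-processing genes were at least 1.5 times that level in 3 of 3 libraries. The latter included Loxl1, a lysyl oxidase that crosslinks elastin and collagen, at 3.17, 2.04 and 2.57 times.

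Of the Wnt list 3 of 8 genes were at least 1.5 times the non-member level in 3 of 3 libraries. They were Dkk3 (2.19, 2.83 and 2.36 times), a secreted Dickkopf-family protein, and the receptors Lrp1 (2.65, 2.65 and 2.06 times) and Ror1 (1.84, 1.65 and 2.30 times). Frzb, of the same list but too rare in non-members to be counted, was at 4.54, 3.25 and 2.02 times. Wif1, a secreted inhibitor that binds Wnt ligands and is not on the list, was at 100.3, 157 and 49.9 CPM against 25.9, 33.5 and 18.1 CPM. Its 24, 38 and 18 UMIs came from 14, 17 and 14 cells, with at most 5, 10 and 2 in one cell. Wif1 ranked first among genes with at least 10 UMIs in the rule-gene-rich members, a minimum it met only through its level in those cells. Complement genes had 3 of 7 above, among them C7, a component of the membrane attack complex, at 2.69, 1.68 and 3.94 times and Serping1, the C1 inhibitor, at 3.23, 2.14 and 1.65 times. Of the mesenchymal transcription factors 4 of 27 were above, among them Tbx20 (2.14, 1.82 and 3.43 times) and Prrx1 (1.72, 1.92 and 2.08 times).

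Markers of activated fibroblasts and myofibroblasts did not lead. None of the 13 counted was at least 1.5 times the non-member level in 3 of 3 libraries. Postn (periostin) was at 1.90, 1.75 and 1.09 times, Vim (vimentin) at 2.23, 1.92 and 1.18 times and Acta2 (smooth muscle actin) at 1.38, 0.632 and 1.004 times. Of the markers of other cell types counted there (10 endothelial, 5 smooth muscle, 3 pericyte, 2 macrophage and 2 mesothelial), 0 were that far above. The rule itself limits some endothelial, macrophage and mesothelial genes, so their part of this count is a description. Over all genes the share that far above was 2.28%, so neither count sets these genes apart.

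**Figure D3:**
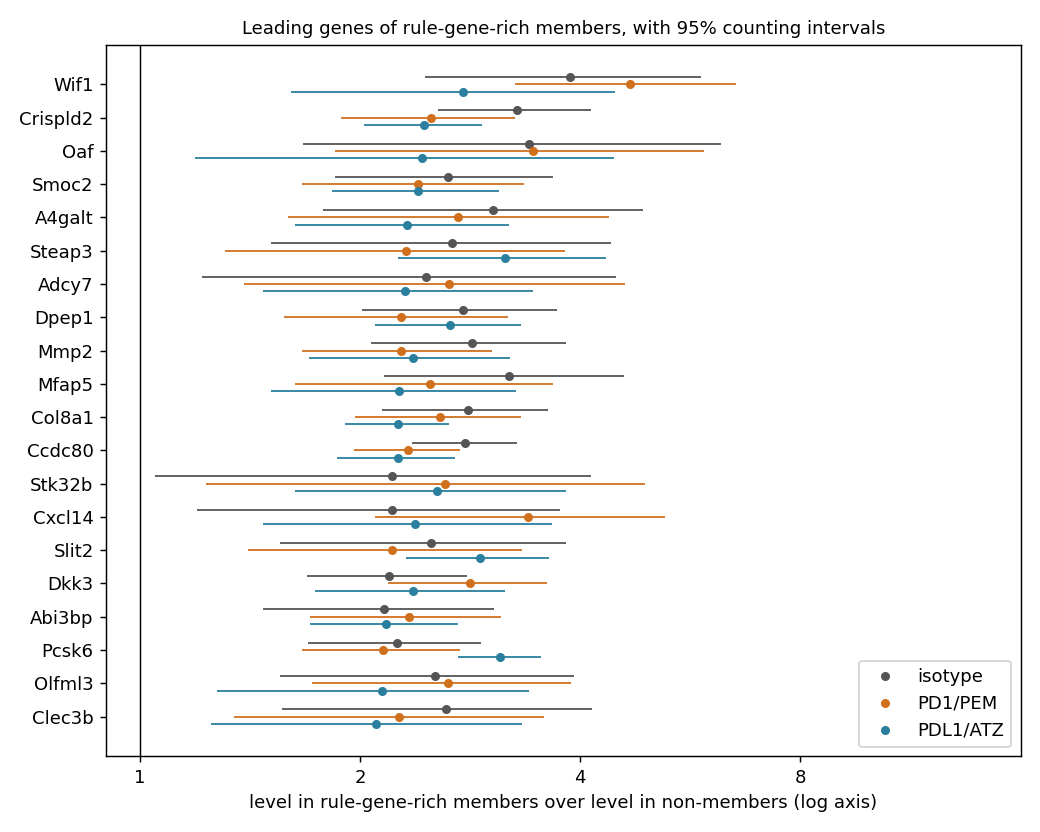
The 20 genes outside the rule with the largest smallest-of-3 ratio in rule-gene-rich members, among genes with at least 10 UMIs there in every library, as the level in these cells over the level in non-members of the same library (log axis), with 95% counting intervals. Wif1 is first at 3.87, 4.67 and 2.76 times, and 9 of the 20 would also reach 10 UMIs at the non-member level.

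The 20 leading genes were compared with other cell classes of the same libraries. Their levels in the rule-gene-rich members exceeded those of the other members for 20 of 20 genes in 3 of 3 libraries. The same held for 20 of 20 against pericyte-rule cells, 20 of 20 against endothelial-rule cells, 19 of 20 against mesothelial-rule cells (all but Stk32b) and 19 of 20 against macrophage-rule cells (all but Adcy7). These genes were ranked on the same cells, so the counts describe them and are no test.

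Genes known from fibroblast subsets were found in small numbers of these cells. Pi16, a marker of adventitial, progenitor-type fibroblasts, had UMIs in 20 of 125 isotype, 27 of 107 PD1/PEM and 27 of 247 PDL1/ATZ rule-gene-rich members, at 117, 152 and 103 CPM against 55.9, 63.0 and 43.0 CPM in non-members. Wif1, a gene of valve and interstitial fibroblasts, had UMIs in 14, 17 and 14 of them. Cells with both were 2, 8 and 1. As background, Pi16 UMIs were present in 13.9%, 17.4% and 7.47% of the deeper endothelial-rule cells, against 16%, 25.2% and 10.9% of the rule-gene-rich members, so a single Pi16 UMI did not assign a cell to a subset.

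The share of cells that met the rule moved with sequencing depth. At full depth members were 9.001% of isotype cells (95% Clopper-Pearson interval 8.43 to 9.59%), 14.1% of PD1/PEM cells (13.2 to 14.9%) and 5.77% of PDL1/ATZ cells (5.35 to 6.21%). The median depth of all cells had the same order, at 1532.5, 2013.5 and 1010.0 UMIs. After each cell was thinned to 700 UMIs, with 483, 133 and 413 shallower cells left out, the shares were 1.14% (0.932 to 1.38%), 1.49% (1.20 to 1.82%) and 2.02% (1.77 to 2.30%), and PDL1/ATZ moved from the lowest to the highest. By the 0.5% limit the shares were 1.31%, 1.68% and 2.13%. No order of fibroblast abundance between groups was therefore read from these data.

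Between PD1/PEM and isotype members, the lists with the largest share of genes called higher were the feedback inhibitors that ERK signalling induces and the immediate early genes, and non-members differed in a similar way. Of 8575 genes with at least 50 UMIs over both libraries, 456 (5.32%) were at least 1.5-fold higher with an interval that excluded no difference, and 391 (4.56%) were that far lower. The median log2 ratio of all of them was -0.0044. Immediate early genes, which are transcribed within minutes of a stimulus, had 12 of 33 higher and 1 lower, with a median log2 ratio of 0.26 in members and 0.32 in non-members. Among feedback inhibitors of ERK signalling 6 of 14 were higher and 0 lower, with a median of 0.49 in members and 0.32 in non-members. Collagens had 0 of 20 on either side.

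Egr2 and Egr3, zinc-finger transcription factors of the EGR family, ranked first and second by the bound nearest no difference. Egr2 (GRCm38 chromosome 10, 67535475 to 67542188, plus strand) had 15 UMIs in isotype and 107 in PD1/PEM members, or 7.52 and 42.4 CPM, a ratio of 5.64 (3.27 to 10.4). In non-members the Egr2 ratio was 3.38. Egr3 (chromosome 14, 70077203 to 70082614, plus strand) had 80 and 415 UMIs, or 40.1 and 164 CPM, a ratio of 4.10 (3.22 to 5.28), while non-members differed by 5.55. Egr1 was the most abundant of them, at 885 and 1966 CPM, a ratio of 2.22 (2.10 to 2.35) against 2.32 in non-members. In PDL1/ATZ members Egr1 was at 706 CPM and Egr3 at 23.6 CPM, so both were lowest there.

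Other immediate early genes lay at ratios near 2. Btg2, an antiproliferative gene, was at 245 CPM in isotype and 555 CPM in PD1/PEM members, Dusp1, a phosphatase that inactivates MAP kinases, at 262 and 577 CPM, and the orphan nuclear receptor Nr4a1 at 173 and 377 CPM. Their ratios were 2.26 (2.04 to 2.51), 2.20 (1.99 to 2.44) and 2.18 (1.93 to 2.47), and those of non-members 2.39, 2.12 and 2.35. With the scaled non-member profile subtracted, which leaves 4.23% of PD1/PEM and 6.59% of isotype member UMIs, the log2 ratio of Egr1 went from 1.15 to 0.08, of Egr3 from 2.03 to 0.66, of Nr4a1 from 1.12 to 0.08 and of Btg2 from 1.18 to -0.15. That of Egr2 went from 2.46 to 6.23 and of Dusp1 from 1.14 to 2.07, and of Errfi1 from 1.60 to 2.17. In isotype, Egr2 was at 7.5153 CPM in members and 9.195 CPM in non-members, so subtraction left no isotype UMIs. The Egr2 value of 6.23 thus rests on the pseudocount and is no measure of size. Dusp1 was at 577 CPM in PD1/PEM members and 575 CPM in non-members, so few UMIs were left for its ratio. Nr4a2 differed by 2.24, or by 1.41 in the rule-gene-rich members, and Hes1, a Notch target outside this list, by 2.27. Fos and Jun, the best known genes of this list, did not reach the fold, at 1.09 (1.002 to 1.18) and 1.20 (1.11 to 1.31). Klf10 was the exception on the low side, with 66 and 46 UMIs and a ratio of 0.551 (0.370 to 0.815).

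Of the ERK feedback genes, Errfi1 (chromosome 4, 150853919 to 150868892, plus strand), an inhibitor of EGF receptor signalling, was at 203 CPM in isotype and 618 CPM in PD1/PEM members, a ratio of 3.04 (2.72 to 3.40). Spry4, a Sprouty inhibitor, was at 26.1 and 94.7 CPM, a ratio of 3.63 (2.68 to 5.005). Non-members differed by 2.96 and 3.24 for these genes, so neither ratio was particular to the members. Dusp5, a nuclear ERK phosphatase, had 34 and 104 UMIs and a ratio of 2.42 (1.63 to 3.67), with 1.70 in non-members. Dusp6, with 63 and 116 UMIs, stayed under the fold at 1.46 (1.06 to 2.01).

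**Figure D4:**
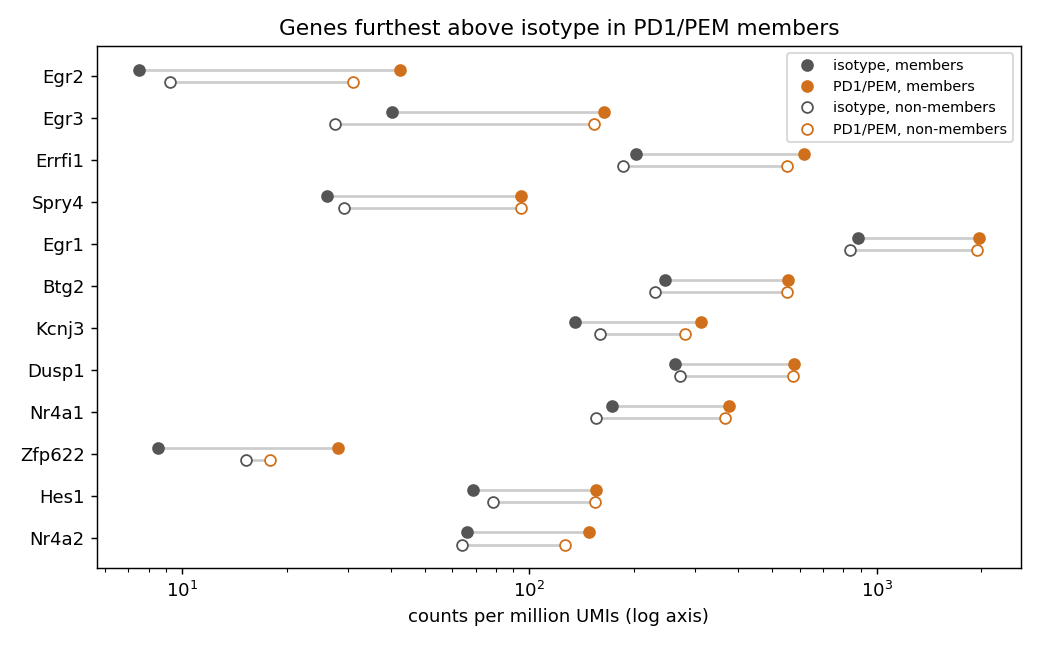
The 12 genes ranked highest in PD1/PEM against isotype members, in CPM on a log axis, with isotype in grey and PD1/PEM in orange, members as filled and non-members as open circles. The shift of Egr1, from 885 to 1966 CPM in members, is nearly the same in non-members. Zfp622 has a wider gap in members, on 17 isotype and 71 PD1/PEM UMIs. Its isotype level is 8.52 CPM in members, under the 15.3 CPM of isotype non-members.

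Among the remaining leading genes, Kcnj3, a potassium channel subunit, differed by 2.30 (2.003 to 2.65) in members and by 1.76 in non-members. Its ratio was 1.22 in the rule-gene-rich members, on 21 and 26 UMIs, and its log2 ratio went from 1.20 to 2.03 in members with at most 25% mitochondrial UMIs. Zfp622 rested on 17 and 71 UMIs, with a ratio of 3.30 (1.93 to 5.98) in members and 1.17 in non-members. On the low side Sox18, an endothelial transcription factor, had 82 and 27 UMIs and was 3.84-fold lower (2.46 to 6.17), with 3.45-fold in non-members. In the rule-gene-rich members its log2 ratio was -0.94, on 8 and 4 UMIs. Hk2, a hexokinase, was 1.99-fold lower (1.67 to 2.38) with 1.93-fold in non-members. The share of cardiomyocyte markers in member UMIs was 3.60% in isotype and 2.54% in PD1/PEM. Scaled to UMIs outside mitochondrial genes and these markers, 430 genes were higher and 434 lower in PD1/PEM members. The part of these markers in the ratios of single genes was not tested.

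Taken over all members, collagens, matrix glycoproteins and TGF-beta and BMP pathway genes differed little between these libraries. Col1a1 was at 199 and 208 CPM in isotype and PD1/PEM members, a ratio of 1.05 (0.916 to 1.19), and Col3a1 at 313 and 343 CPM, a ratio of 1.09 (0.986 to 1.22). Of 47 proteoglycans and matrix glycoproteins 2 were higher, Efemp2 and Has2, and 1 was lower, Nid2. Has2, a hyaluronan synthase, had 14 and 42 UMIs and a ratio of 2.37 (1.27 to 4.70). Of 24 matrix proteases and inhibitors 4 were higher, among them the metalloproteases Adamts1, Adamts4 and Adamts9, and 1, Timp4, was lower. Integrins and matrix receptors had 4 of 28 higher (Itga1, Itga5, Itga6 and Itga11) and 0 lower, and mesenchymal transcription factors 4 of 35 and 0. Over all genes 5.32% were higher and 4.56% lower. Activated fibroblast genes had 2 of 25 higher and 2 lower: Ccn1, a matricellular immediate early gene, was at 92.7 and 189 CPM, a ratio of 2.03 (1.71 to 2.42), and Thbs1 at 1.72 (1.49 to 1.98), whereas Cnn1 and Chad were lower on 40 and 26 PD1/PEM UMIs. TGF-beta and BMP pathway genes had 1 of 37 higher, Smad1, and 0 lower.

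Among immune genes, 6 of 28 of the type I interferon response were higher and 0 lower in PD1/PEM members, with a median log2 ratio of 0.26 in members and 0.40 in non-members. Ifi27l2a had 91 and 228 UMIs and a ratio of 1.98 (1.55 to 2.56), and Ifi203 had 74 and 199 UMIs and a ratio of 2.13 (1.62 to 2.82). The chemokine Cxcl12 was at 136 and 223 CPM, a ratio of 1.63 (1.41 to 1.90), with 1.58 in non-members. Antigen presentation genes had 1 of 28 on either side.

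The same comparison in the rule-gene-rich members counted 91 of 1585 genes higher (5.74%) and 116 lower (7.32%). Immediate early genes had 8 of 23 higher and 0 lower, with Egr3 at 11 and 71 UMIs (46.0 and 292 CPM) and Errfi1 at 68 and 224 UMIs (284 and 923 CPM). Matrix genes were found on both sides. Prelp had 49 and 101 UMIs, or 205 and 416 CPM, a ratio of 2.03 (1.43 to 2.92), with 1.24 in non-members, and came from 30 isotype and 46 PD1/PEM cells. Comp, a cartilage and tendon matrix protein, had 25 and 63 UMIs, a ratio of 2.49 (1.54 to 4.12), with up to 12 in one cell. Eln (elastin) had 53 and 19 UMIs, a ratio of 0.354 (0.198 to 0.607), and Acta2 66 and 22 UMIs, a ratio of 0.329 (0.193 to 0.540), with 13 of the isotype UMIs in one cell. In all members Prelp and Comp differed by 1.29 and 1.15, and Eln and Acta2 by 0.775 and 0.687, so none of the 4 reached the fold there. Cells are not replicates, and so few of them from 1 pool per group carry no measure of the spread between hearts.

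In the comparison of PDL1/ATZ with isotype many more genes passed the fold. Of 7836 genes measured in members 2977 (38.0%) were at least 1.5-fold higher and 593 (7.57%) lower, with a median log2 ratio of 0.44 in members and 0.44 in non-members. Scaled to UMIs outside mitochondrial genes and cardiomyocyte markers, the counts were 1456 higher and 1282 lower and the median 0.06. The mitochondrial share of member UMIs was 25.9% in isotype and 7.10% in PDL1/ATZ. In addition, 1942 gene symbols carried UMIs only in the other libraries and 2893 only in PDL1/ATZ. After 219 pairs of older and newer symbols had been joined, the remaining 4397 were left out. Library, the symbols that carry reads, mitochondrial share and group cannot be told apart in this comparison.

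Non-members differed in the same direction for the genes named here. Cox16, a mitochondrial assembly factor, had 13 and 236 UMIs in isotype and PDL1/ATZ members, a ratio of 31.6 (18.1 to 60.2) with 35.3 in non-members, and Rpl13a, a ribosomal protein gene, 72 and 618 UMIs, a ratio of 14.9 (11.7 to 19.3) with 17.6. Vegfa, the endothelial growth factor, was 4.24-fold lower (3.12 to 5.88) with 3.56-fold in non-members. Several ratios were not alike in members and non-members, such as Glcci1 at 38.3 (12.5 to 190.5) against 18.7 and Cpne1 at 42.4 (13.9 to 210.2) against 112, both with wide intervals. Abca6, a lipid transporter gene, was at 20.5 and 152 CPM, a ratio of 7.39 (5.23 to 10.7), against 19.9 and 74.9 CPM, a ratio of 3.77, in non-members.

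Read against the median of 0.44, the lists spread to both sides. Of all 7836 genes 38.0% were higher and 7.57% lower. Scaled without mitochondrial and cardiomyocyte UMIs (the other scaling), 1456 of them were higher and 1282 lower. Interstitial and valve fibroblast genes had 14 of 22 higher and 1 lower, with a median log2 ratio of 0.99 (0.94 in non-members), and 11 higher and 3 lower in the other scaling. Lsamp, an adhesion molecule, was at 138 and 597 CPM, a ratio of 4.31 (3.75 to 4.98) with 3.56 in non-members, and Hsd11b1, which activates glucocorticoids, at 24.5 and 98.6 CPM, a ratio of 4.02 (2.85 to 5.74) with 2.32. Mesenchymal transcription factors had 23 of 34 higher and 2 lower, with a median of 0.81 (0.71 in non-members), and 16 and 2 in the other scaling. Ebf1, a transcription factor of stromal cells, was at 516 and 2006 CPM, a ratio of 3.89 (3.61 to 4.19) with 3.59 in non-members. The type I interferon response had 17 of 25 higher and 0 lower, with a median of 0.81 (0.999 in non-members), and 8 and 0 in the other scaling.

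Collagens, activated fibroblast genes and heat shock genes had medians below 0.44. Collagens had 5 of 18 higher and 1 lower with a median log2 ratio of -0.16 (-0.15 in non-members), and in the other scaling this turned to 4 higher and 9 lower. Col1a1 was at 199 CPM in isotype and 94.2 CPM in PDL1/ATZ members, a ratio of 0.472 (0.378 to 0.586), with 0.419 in non-members, whereas Col8a1 was at 140 and 332 CPM, a ratio of 2.38 (2.03 to 2.79). Proteoglycans and matrix glycoproteins had 16 of 45 higher and 5 lower with a median of 0.39, close to that of all genes, and 11 and 9 in the other scaling. Among the higher were Smoc2 and Lama2, and among the lower was Bgn (biglycan), a small proteoglycan, which was at 540 and 256 CPM, a ratio of 0.475 (0.416 to 0.541), with 0.513 in non-members. Activated fibroblast genes had 1 of 19 higher and 5 lower, and 0 and 10 in the other scaling. Ccn2 (connective tissue growth factor) was at 209 and 54.96 CPM, a ratio of 0.263 (0.198 to 0.344), with 0.287 in non-members, and Thbs1 differed by 0.281 (0.201 to 0.385). Heat shock genes had 0 of 15 higher and 8 lower, with a median of -0.65 (-0.53 in non-members), and 0 and 13 in the other scaling. Immediate early genes had 4 of 29 higher and 3 lower, against 38.0% and 7.57% of all genes. In the other scaling they had 1 higher and 13 lower, against 1456 and 1282 of all 7836 genes. Their median of 0.05 (0.02 in non-members) also lay below the 0.44 of all genes. In the other scaling it was -0.32 against 0.06.

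In the rule-gene-rich members 790 of 2431 genes were higher in PDL1/ATZ (32.5%) and 238 lower (9.79%). Col1a1 had 120 UMIs in isotype and 42 in PDL1/ATZ there, a ratio of 0.233 (0.160 to 0.333), Bgn 309 and 101, a ratio of 0.217 (0.172 to 0.273), and Thbs1 89 and 8, a ratio of 0.0597 (0.0250 to 0.123). Mesenchymal transcription factors had 20 of 26 higher and 0 lower. The 0.5% limit is a share of all UMIs, mitochondrial ones included. It kept 14.6% of isotype members and 36.9% of PDL1/ATZ members, so the cells compared were not chosen alike. The part of this in the ratios was not tested, and they are given in the main scaling only.

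**Figure D5:**
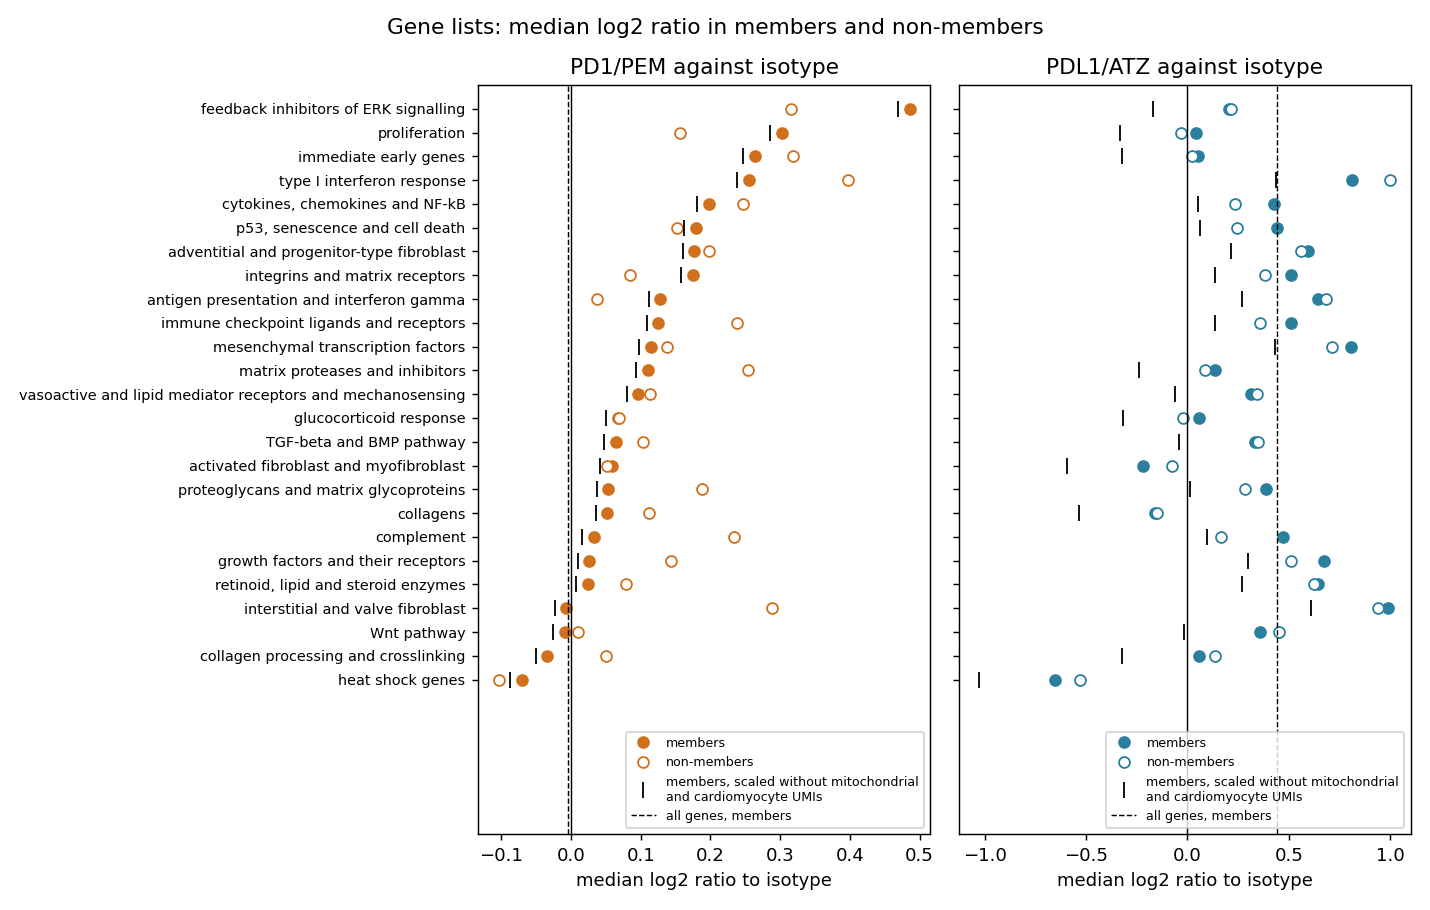
Median log2 ratio to isotype of each gene list outside the rule in members (filled) and non-members (open), for PD1/PEM (left) and PDL1/ATZ (right), with the members' median after scaling without mitochondrial and cardiomyocyte UMIs as ticks and the median of all genes as a dashed line. On the left the feedback inhibitors of ERK signalling stand highest in members at 0.49, and on the right the dashed line lies at 0.44 and the ticks lie to the left of the filled circles. Both panels share the isotype library.

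Genes of the PD-1 axis were scarcely detected in members. Pdcd1, which encodes PD-1, had 0, 2 and 2 UMIs in members of isotype, PD1/PEM and PDL1/ATZ, and the 0 allows up to 1.503 CPM (3 UMIs). Cd274, which encodes PD-L1, had 21, 23 and 10 UMIs in members of isotype, PD1/PEM and PDL1/ATZ, or 10.5, 9.11 and 8.72 CPM, against 11.2, 12.7 and 17.3 CPM in non-members. The counting intervals of the members' levels, 6.51 to 16.1, 5.78 to 13.7 and 4.18 to 16.04 CPM, overlapped. Pdcd1lg2, the gene of the second ligand PD-L2, had 2, 1 and 6 UMIs. No difference in Cd274 between members was detectable at this depth, and Pdcd1lg2, on so few UMIs, was not compared.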

How the data were processed

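Each library is 1 pool of hearts, digested and captured with the 10x Genomics 3′ v3.1 kit per the labels' protocols. Per the submitters' processing notes, Cell Ranger and Seurat were used with mm10. Of the sources used here, none gave versions, annotation or cell filters. The values, as deposited, are counts, whole UMIs per gene and cell, with 16677883, 14766346 and 15144668 UMIs in the isotype, PD1/PEM and PDL1/ATZ matrices. The 13 rule genes, the members and the 26 gene lists were chosen with earlier results of these data known.

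UMIs were summed over members and scaled to CPM (Python 3.11.15, scipy 1.17.1). Sums have exact Poisson intervals and ratios exact conditional binomial intervals. Log2 ratios use a pseudocount of 0.5. Genes named in the comparisons are the 12 highest and 12 lowest by the interval bound nearest no difference, at a level at least that of non-members, plus list members, while mitochondrial, haemoglobin, sex-linked and unnamed genes were only counted. Some members singled out within lists were picked after their values were seen. Doublets were scored per library and 0.8% per 1000 cells marked (724, 326 and 1076 cells), and they were kept in the main values. Positions are from GENCODE M21 (GRCm38). The ratio step was tested on simulated data. Results for some genes are not reported here.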

Additional observations from a re-analysis of the deposited data

How the results depend on the processing

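Alternatives were the UMI minimum, the fold, the number of rule genes, a mitochondrial limit, doublets, thinning, scaling, equal weight per cell, subtraction of the non-member profile and mural genes. The 0.5% limit, the rule without limits on other cell types, leaving out shared barcodes and the choice of genes by the non-member level were added after the data were seen. For PD1/PEM the counts of genes higher and lower were 116 and 65 at a fold of 2, 274 and 259 with at most 25% mitochondrial UMIs, 238 and 221 after thinning to 700 UMIs, 219 and 173 after subtraction and 91 and 116 at the 0.5% limit, and 294 were higher with 5 or more rule genes. For PDL1/ATZ they were 1483 and 315 at a fold of 2, 1286 and 349 after thinning, 1456 and 1282 in the other scaling, 442 and 217 after subtraction and 790 and 238 at the 0.5% limit, with 1971 higher at a minimum of 100 UMIs and 1646 with 5 or more rule genes. The other counts stayed within 1.5 times the main ones. Subtraction left 6.59%, 4.23% and 13.9% of the member UMIs of isotype, PD1/PEM and PDL1/ATZ, and Btg2 then turned to a log2 ratio of -0.15. Of the 24 genes named for each comparison 22 could be given a value after subtraction, of which 22 moved by more than their counting interval for PD1/PEM and 18 for PDL1/ATZ. Btg2 was the only one of them to change sign. Counted over 3362 genes with 10 or more UMIs in the rule-gene-rich members themselves, 128 were higher than in non-members and 32 lower, against 78 and 50 in the main count. The share of cells in the rule was, for isotype, PD1/PEM and PDL1/ATZ, 3.07%, 5.26% and 2.25% with 5 or more genes, 24.2%, 31.9% and 15.4% with 3 or more, 1.14%, 1.49% and 2.02% thinned, 1.31%, 1.68% and 2.13% at the 0.5% limit and 12.02%, 24.5% and 10.4% without limits on other cell types. With at most 25% mitochondrial UMIs it was 9.99% and 12.6% in isotype and PD1/PEM, and without doublets 8.18% in isotype and 5.17% in PDL1/ATZ. No paired analysis was possible because each group is 1 library. Depth limits all single genes with few UMIs, and the intervals hold no spread between hearts. Thinning, subtraction and the narrower sets of members left fewer genes measured, 3856, 640 and 1585 of 8575 for PD1/PEM after thinning, after subtraction and at the 0.5% limit. For the other shifts the cause was not tested.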
